A study of Homo sapiens with 8 samples.

Results

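The 10 genes described here are markers of the basal layer of stratified and glandular epithelia, and the question was where the transcription factor GATA2 lay near them in VCaP cells with and without JQ1. They are TP63, LAMA3, CD44, KRT5, KRT14, ITGA6, COL17A1, EGFR, DST and SNAI2, 10 of 20037 protein-coding genes. A peak was taken when its summit lay within 50 kb of the RefSeq span of a member (assembly GRCh38.p14, the same build as the files' hg38), and overlapping peaks of the lists were merged into regions. This gave 99 peaks in 47 regions, of 36122 regions in the whole series. VCaP is an established human prostate cancer cell line, labelled castrate-resistant. GATA2 binding was measured by chromatin immunoprecipitation and sequencing with an antibody against GATA2. The JQ1 group held 2 precipitates from cells given 1 µM JQ1, a small molecule that blocks the acetyl-lysine pockets of BET proteins. The non-treated group held 2 precipitates that the titles call non-treated, and the culture protocol names DMSO as the control. All cells had been kept without steroids for 72 h in total, with agent or vehicle present over the last 24 h. Peaks were called per precipitate. The 4 input libraries were not analysed here, and the lists do not give the number of reads.

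GATA2 is a zinc-finger transcription factor that binds GATA letters in DNA and is known to act at enhancers in prostate cancer cells. Basal prostate cells sit on the basement membrane beneath the secretory luminal cells. They are recognised by the transcription factor p63, by a keratin pair and by the laminin, integrin and collagen of the hemidesmosome, the junction that ties a basal cell to its basement membrane. Peak lists hold no RNA, so whether VCaP cells expressed these genes was not measured.

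GATA2 peaks were found near 9 of the 10 members, and KRT5 had none. Across all protein-coding genes 62.6% had a peak of any list in the same window. The list of JQ1 replicate 1 held 6 peaks near members, JQ1 replicate 2 held 45, non-treated replicate 1 held 12 and non-treated replicate 2 held 36. These were drawn from whole lists of 4974, 32404, 6902 and 27373 peaks in the same order, so the 2 lists of replicate 1 were short in both groups. Members with at least 1 peak numbered 4 in JQ1 replicate 1, where 18.2% of all genes had one, and 9 in JQ1 replicate 2, against 58.2% of all genes. They numbered 5 in non-treated replicate 1, against 25.7% of all genes, and 9 in non-treated replicate 2, against 54.6%.

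For the number of peaks near members, the gap between treatments was smaller than the spread within each treatment. The JQ1 lists held 25.5 ± 27.6 peaks near members and the non-treated lists 24.0 ± 17.0 (SD, n = 2 each), so the arithmetic mean was slightly higher with JQ1. The test used the mean of log2 counts, which was lower with JQ1, with a difference of −0.34 (a ratio of geometric means of 0.791) and a p of 1 in a two-sided exact permutation test. No p below 0.333 is possible with 2 lists a side. As a share of the list, peaks near members made up 0.121% (95% Wilson interval 0.0553 to 0.263) of JQ1 replicate 1 and 0.139% (0.104 to 0.186) of JQ1 replicate 2. The shares were 0.174% (0.0995 to 0.304) in non-treated replicate 1 and 0.132% (0.0950 to 0.182) in non-treated replicate 2. The JQ1 share was thus below the non-treated share in replicate 1 and above it in replicate 2, and the difference of mean log2 shares of −0.22 had an exact permutation p of 0.667. These values moved with the choice of peaks. With peaks of q 1e-05 or less the log2 differences were −1.09 for the number (exact permutation p of 1) and −0.92 for the share (p of 0.667), and with lists of equal length both were −0.54, at the smallest possible exact p of 0.333. Without replicate 1 the log2 differences were 0.32 for the number and 0.079 for the share, and without replicate 2 they were −1 and −0.53. Separate cultures are not mentioned for the replicates in the labels, and the p-values therefore cover only the spread among these precipitates, which may be technical.

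Of the 47 regions, 5 were present in all 4 lists, which is the case for 8.96% of all regions. These common regions lay at TP63 (2), LAMA3 (2) and CD44 (1). A further 7 regions were in both non-treated lists and in JQ1 replicate 2 but had no peak in the shortest list, JQ1 replicate 1. One region, inside EGFR, was in both JQ1 lists and in non-treated replicate 2. The shares of this pattern and of the one before it over all regions are not given here, so neither is read as a trait of the members. The lists of replicate 2 alone shared 18 regions (38.0% of all regions show this pattern), JQ1 replicate 2 alone held 12 (25.9% of all regions) and non-treated replicate 2 alone held 4 (13.3% of all regions). No member region was in both non-treated lists and in neither JQ1 list, a pattern of 0.62% of all regions, and none was in both JQ1 lists and in neither non-treated list, a pattern of 0.377%. All 13 regions with a peak in a replicate 1 list also had a peak in a replicate 2 list. The same share over all regions is not given here, so this count is not read as a trait of the members. Of 12 member regions in both non-treated lists, 5 were also in both JQ1 lists, against 50.8% of such regions in the whole series. Strength is given below as the authors' −log10 q, the caller's significance of a peak in its own list, which is higher for a stronger peak and also depends on depth. Where a treatment has 2 values, that of replicate 1 stands first.

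**Figure D1:**
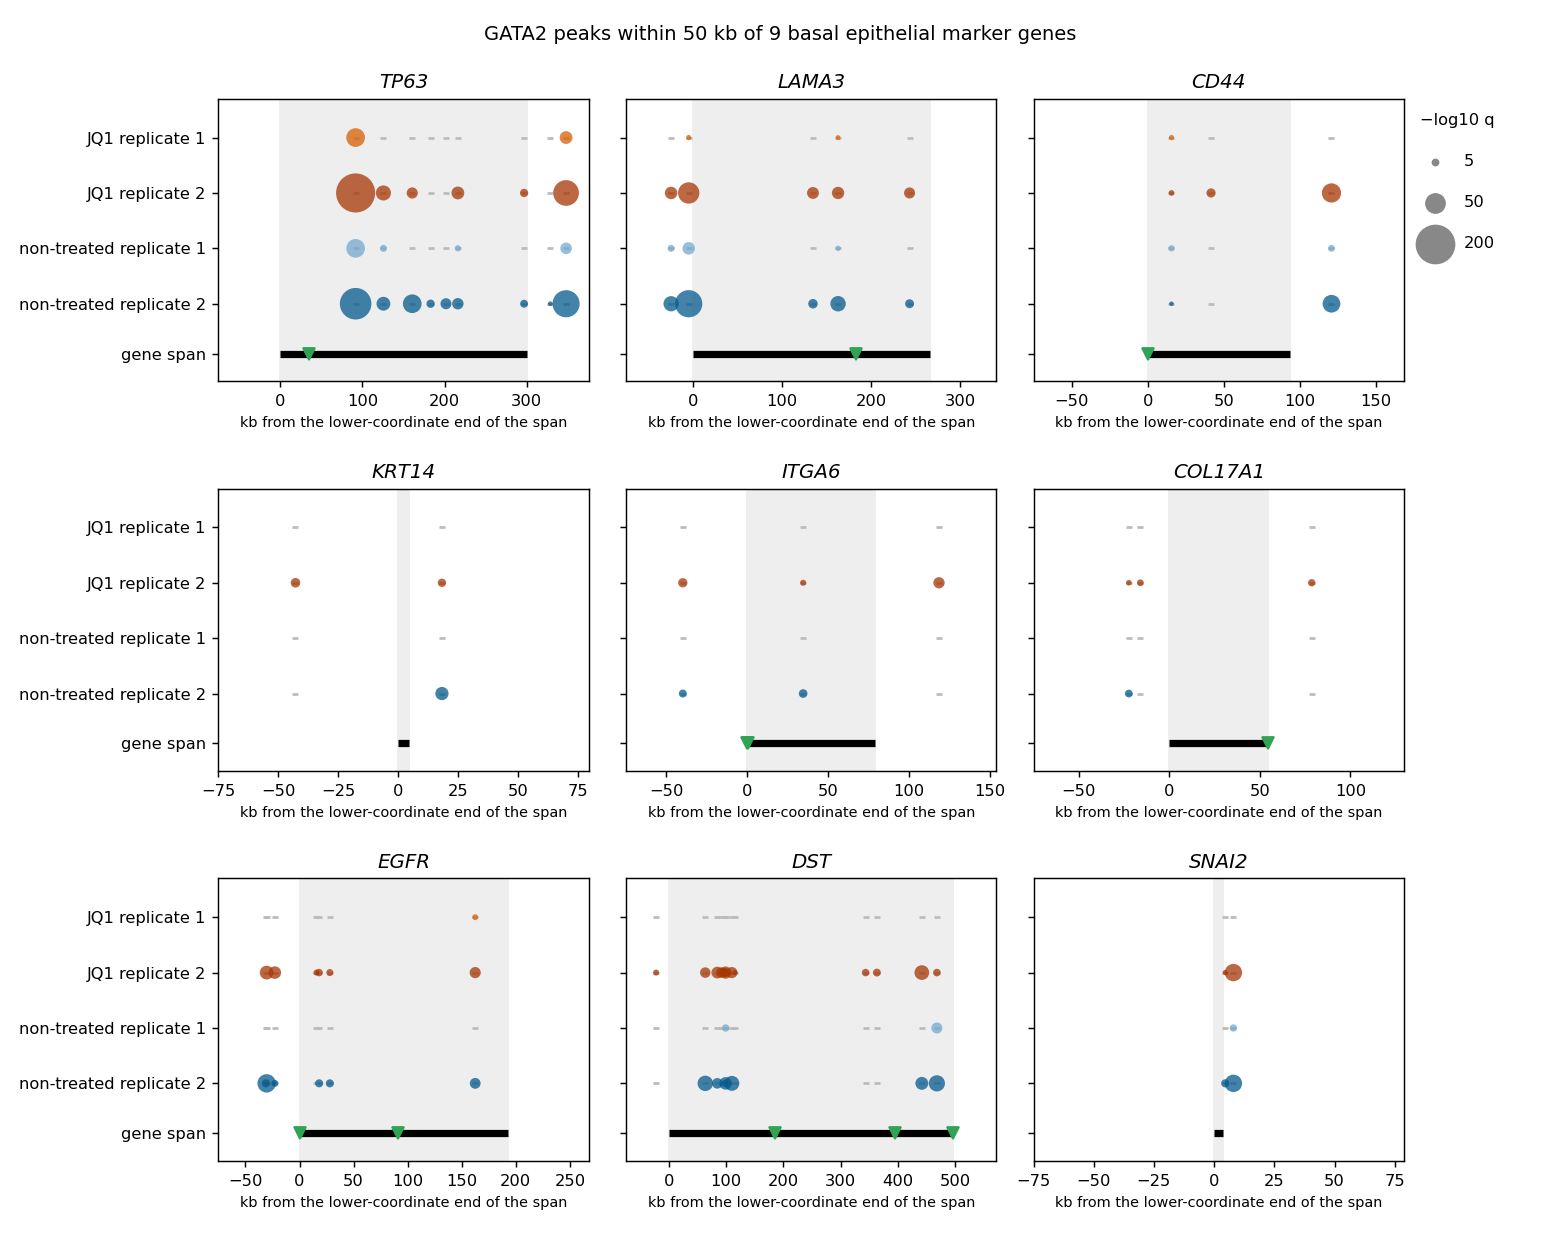
Position of each GATA2 region near 9 members, in kb from the lower-coordinate end of the gene span (grey band and black bar), in the 4 peak lists from top to bottom. The area of a circle is the authors' −log10 q of the strongest peak, a dash marks a region with no peak in that list, and green triangles are transcription starts that RefSeq lists. The largest circles are at TP63 region 1, with −log10 q of 48.9 and 213 with JQ1 and 48.7 and 139 in non-treated cells.

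TP63, the gene of the p63 transcription factor that specifies basal cells (NCBI gene 8626, chr3:189596746-189897276), carried 9 regions, 7 of them inside the span. Its region 1, counted from the lower coordinate, was the strongest of all 47 member regions by q in each of the 4 lists. It lay at chr3:189688390-189688872 inside the gene, 57.2 kb from the only TP63 transcription start in the RefSeq table used here. The authors' fold enrichment there was 19.97 and 50.9 with JQ1 and 14.6 and 23.3 in non-treated cells. The −log10 q was 48.9 and 213 with JQ1, against 48.7 and 139 in non-treated cells. By p-value it stood at rank 61 and 40 of the JQ1 lists, in replicate order, and at rank 250 and 367 of the non-treated lists. The lists differ in length, so the rank was also taken among the 3236 regions present in all 4 lists. There it was 60 and 39 with JQ1 and 247 and 350 in non-treated cells. The ranks describe each list, and no change in rank was tested.

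The other common region of TP63, region 9, lay 47.3 kb beyond the higher-coordinate end of the span at chr3:189944145-189944705, where it was closer to P3H2, a collagen prolyl hydroxylase gene 12.2 kb away. Its −log10 q was 22.9 and 92.0 with JQ1 and 18.9 and 102 in non-treated cells. Both replicate 2 lists had a second, weaker summit within the same interval. Regions 2 and 6, inside the gene, were absent from JQ1 replicate 1, with a −log10 q of 31.8 and 22.97 in JQ1 replicate 2. In the non-treated lists region 2 had 7.01 and 26.7 and region 6 had 5.47 and 18.2. Regions 4, 5 and 8 were found in non-treated replicate 2 only, with −log10 q of 9.69, 17.1 and 3.08, and regions 3 and 7 in the replicate 2 list of each group.

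No GATA2 summit of any list lay in the 1 listed promoter window of TP63, from 250 bases before to 50 bases after the listed start. That start lies 34.6 kb inside the span, and promoters at unlisted starts of TP63 were not examined. The window is shown because it does hold GATA letters without a peak. It is given 5′ to 3′ from RefSeq (GRCh38.p14, chr3:189631139-189631438, plus strand), with the letters TGATAG in capitals.
TP63 promoter window: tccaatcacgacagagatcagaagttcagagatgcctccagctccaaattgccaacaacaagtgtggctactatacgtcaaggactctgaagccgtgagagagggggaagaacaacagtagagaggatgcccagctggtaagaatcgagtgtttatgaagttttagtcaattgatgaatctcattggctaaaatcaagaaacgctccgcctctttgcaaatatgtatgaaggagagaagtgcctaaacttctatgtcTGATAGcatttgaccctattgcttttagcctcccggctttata

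Promoter windows with a summit were rare among all genes, and none was seen among the members that had a window, which does not set the members apart. RefSeq gave 12 such windows for 8 members, and 0 of the 12 held a summit, as against 0.572% of all 35116 windows. KRT14 and SNAI2 had no window, so their promoters were not examined. Chromosome 8, which holds SNAI2, was left out of the promoter search. The GATA letters searched for were AGATAA and, with the last base changed, AGATAG, besides the forms with a leading T, which are TGATAA and, in the same way, TGATAG. Any of these stood on either strand in 6 of the 12 member windows. The same was true of 25.0% of all windows and of 72.6% of the 201 windows with a summit. Of the 47 member regions, 29 had their summit inside the span. By coordinate, without regard to the strand of the gene, 10 lay below the span and 8 above it. A single region lay within 1 kb of either end of a span, namely region 1 of SNAI2, a member without a promoter window.

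LAMA3, which codes for the alpha-3 chain of the laminin of epithelial basement membranes (NCBI gene 3909, chr18:23689453-23955066), had 5 regions, of which 2 were common. Region 2 lay 4.60 kb before the span at chr18:23684524-23685171. Its −log10 q was 3.88 and 63.4 with JQ1 and 21.9 and 103 in non-treated cells, and its fold was 3.66 and 18.0 with JQ1 and 9.02 and 31.1 in non-treated cells. In each replicate the JQ1 value was below the non-treated one. Region 4, inside the gene and 20.6 kb from the listed start, was weaker, with a −log10 q of 3.26 and 21.3 with JQ1 and 4.02 and 33.2 in non-treated cells. Region 1, which lay 2.18 kb from the neighbouring ANKRD29, had no peak in JQ1 replicate 1 and a −log10 q of 21.9 in JQ1 replicate 2, against 6.86 and 32.4 in non-treated cells. Regions 3 and 5 were in the lists of replicate 2 only.

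CD44, the gene of a hyaluronan receptor (NCBI gene 960, chr11:35139171-35232402), had a weak common region and a stronger one outside its span. The common region 1, 15.6 kb inside the gene at chr11:35154581-35154884, had a −log10 q of 3.78 and 4.51 with JQ1 and 5.56 and 2.76 in non-treated cells. These values stood in the lower part of each list, within the top 87.5% and 87.0% of the JQ1 lists and the top 77.1% and 96.2% of the non-treated lists by p-value. Region 3, 27.4 kb beyond the span and inside SLC1A2, a glutamate transporter gene, had no peak in JQ1 replicate 1 and a −log10 q of 51.7 in JQ1 replicate 2. The non-treated lists had 6.52 and 43.9 there. Region 2 was in JQ1 replicate 2 only.

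DST, which codes for dystonin, a plakin whose epithelial form anchors keratin to the hemidesmosome (NCBI gene 667, chr6:56457996-56954830), held the most regions of any member, 13. None had a peak in JQ1 replicate 1. All 13 had one in JQ1 replicate 2, against 2 in non-treated replicate 1 and 7 in non-treated replicate 2. Of these, 8 lay within 51.95 kb, between 56521500 and 56573450, in the lower-coordinate part of the gene. The nearest of the 8 was 69.4 kb from the lowest of the 3 listed starts. The −log10 q of the 8 ran from 3.63 to 20.9 in JQ1 replicate 2, and 5 of them had a peak in non-treated replicate 2, from 7.69 to 33.2. Region 13, nearer the highest-coordinate start, was the strongest in non-treated cells, with a −log10 q of 17.2 and 36.7, against 8.01 in JQ1 replicate 2 and no peak in JQ1 replicate 1.

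ITGA6 and COL17A1 had GATA2 peaks in replicate 2 lists only. ITGA6, the gene of the alpha-6 integrin that pairs with beta-4 in hemidesmosomes (NCBI gene 3655), had 3 regions. Region 2, inside the gene, had a −log10 q of 5.09 in JQ1 replicate 2 and 10.5 in non-treated replicate 2. Region 3, 9.44 kb from PDK1, was in JQ1 replicate 2 only, at 17.7. COL17A1, the gene of the transmembrane collagen of hemidesmosomes (NCBI gene 1308), had 3 regions, all outside its span. Each was nearer to another gene, namely SLK, a kinase gene that held 2 of the summits, or SFR1. The −log10 q was 4.42, 6.41 and 7.53 in JQ1 replicate 2, and 8.52 at region 1 in non-treated replicate 2.

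EGFR, the receptor of epidermal growth factor (NCBI gene 1956, chr7:55019017-55211628), had 7 regions, 3 of them before its start and 4 inside. Region 7, 162 kb into the gene, had a −log10 q of 4.91 and 17.5 with JQ1, no peak in non-treated replicate 1 and 16.4 in non-treated replicate 2. Region 2, 30.4 kb before the start, had 26.5 in JQ1 replicate 2 and 47.2 in non-treated replicate 2, with no peak in either replicate 1 list. Region 3, 22.8 kb before the start at chr7:54996102-54996319, had a −log10 q of 21.9 in JQ1 replicate 2 and 6.86 in non-treated replicate 2. The order was the opposite by a measure of pileup given further below.

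Region 3 of EGFR was the sole member region whose summit fell in a listed promoter window, that of the non-coding gene LOC105375284. The window is shown because it gives the letters under a summit. It is written 5′ to 3′ from RefSeq (GRCh38.p14, chr7:54995988-54996287, minus strand) with AGATAG, the first run of capitals, and AGATAA, the other.
LOC105375284 promoter window: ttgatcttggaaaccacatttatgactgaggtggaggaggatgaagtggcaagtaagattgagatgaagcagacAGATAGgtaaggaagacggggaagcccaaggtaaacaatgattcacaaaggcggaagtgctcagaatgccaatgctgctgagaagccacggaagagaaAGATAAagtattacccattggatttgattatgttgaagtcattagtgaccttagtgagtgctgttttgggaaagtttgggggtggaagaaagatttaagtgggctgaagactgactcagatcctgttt

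The summit lay at 54996206 in JQ1 replicate 2 and at 54996211 in non-treated replicate 2, which is 4.5 and 0.5 bases from the middle of AGATAG. It was 93.5 and 98.5 bases from the middle of AGATAA in the same order. A match of letters is a description and does not show that GATA2 contacted them.

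SNAI2, which codes for the zinc-finger repressor Slug (NCBI gene 6591, chromosome 8, 48917598 to 48921429), had 2 regions close to the higher-coordinate end of its short span. Region 2, 4.17 kb from the span, had no peak in JQ1 replicate 1 and a −log10 q of 42.2 in JQ1 replicate 2, against 7.5 and 42.3 in non-treated cells. The replicate 2 values were thus close by q, and the fold was 11.6 in JQ1 replicate 2 and 11.5 in non-treated replicate 2. Region 1, 0.780 kb from the span, had 3.82 in JQ1 replicate 2 and 9.42 in non-treated replicate 2.

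Of the keratin pair of basal cells, both short genes, KRT14 (NCBI gene 3861, chromosome 17) had 2 regions, closer to KRT19 (11.1 kb) and KRT16 (9.21 kb), and both were seen in replicate 2 lists only. The one near KRT16 had a −log10 q of 9.79 in JQ1 replicate 2 and 24.5 in non-treated replicate 2. KRT5 (NCBI gene 3852, chr12:52514575-52520394) had its nearest summit 60.2 kb away, outside the window, with a −log10 q of 7.18 in JQ1 replicate 2. At the edge of the window, the farthest summits kept were those of TP63 region 9 at 47.3 kb. The nearest left out were 52.1 kb from DST, with a −log10 q of 3.86 in JQ1 replicate 2, and 53.3 kb from TP63, with 32.6 in JQ1 replicate 2.

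Fold enrichment and the amount of precipitated DNA gave different orders at TP63 region 1. A fold is a ratio of the pileup, the number of fragments that overlap the summit, to a local background, each with 1 added by the caller. Both could be recovered from the deposited fold and p-value. The pileup at this site was 47 and 148 fragments with JQ1 and 59 and 202 in non-treated cells. The 202 fragments of non-treated replicate 2 are before a scaling by 0.686, which the caller's fold and background in that list include and which the 3 other lists did not have. On the caller's scale, the background was 1.40 and 1.93 with JQ1 and 3.10 and 5.00 in non-treated cells. So the JQ1 lists had the higher fold in both replicates together with the lower background, whose part in the fold was not tested. To allow for depth, each pileup on the caller's scale was divided by the lowest background of its own list (1.13 and 1.56 with JQ1, 1.25 and 1.34 non-treated), and the quotient is called the depth-scaled pileup. It was 41.7 (95% Poisson interval 30.7 to 55.5) and 94.7 (80.1 to 111.3) with JQ1, against 47.1 (35.9 to 60.8) and 103 (89.5 to 119) in non-treated cells. The intervals cover counting error only, and they overlapped within each replicate. On the log2 scale JQ1 over non-treated was 0.45 and 1.13 by fold, but −0.18 and −0.12 by depth-scaled pileup.

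At LAMA3 region 2 the pileup, like the fold, was lower with JQ1 in both replicates. Its depth-scaled pileup was 17.8 (10.8 to 27.4) and 42.9 (33.2 to 54.5) with JQ1, against 28.8 (20.1 to 39.8) and 61.8 (51.3 to 73.9) in non-treated cells. The log2 differences were −0.70 and −0.53, with overlapping intervals in each replicate. At LAMA3 region 4 the replicate 2 values were 21.1 (14.5 to 29.7) with JQ1 and 40.9 (32.4 to 50.9) non-treated, and these intervals did not overlap, while the fold was 9.01 with JQ1 and 9.32 non-treated. Its background was 2.77 in JQ1 replicate 2 and 5.00 in non-treated replicate 2. The replicate 1 values, 9.76 (4.87 to 17.5) with JQ1 and 12.8 (7.30 to 20.8) non-treated, overlapped. At CD44 region 1 the depth-scaled pileup was 9.76 and 8.96 with JQ1 and 13.6 and 10.2 in non-treated cells. At TP63 region 9 it was 27.5 and 55.7 with JQ1, against 26.4 and 72.1 in non-treated cells, so that the replicates went in opposite directions.

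**Figure D2:**
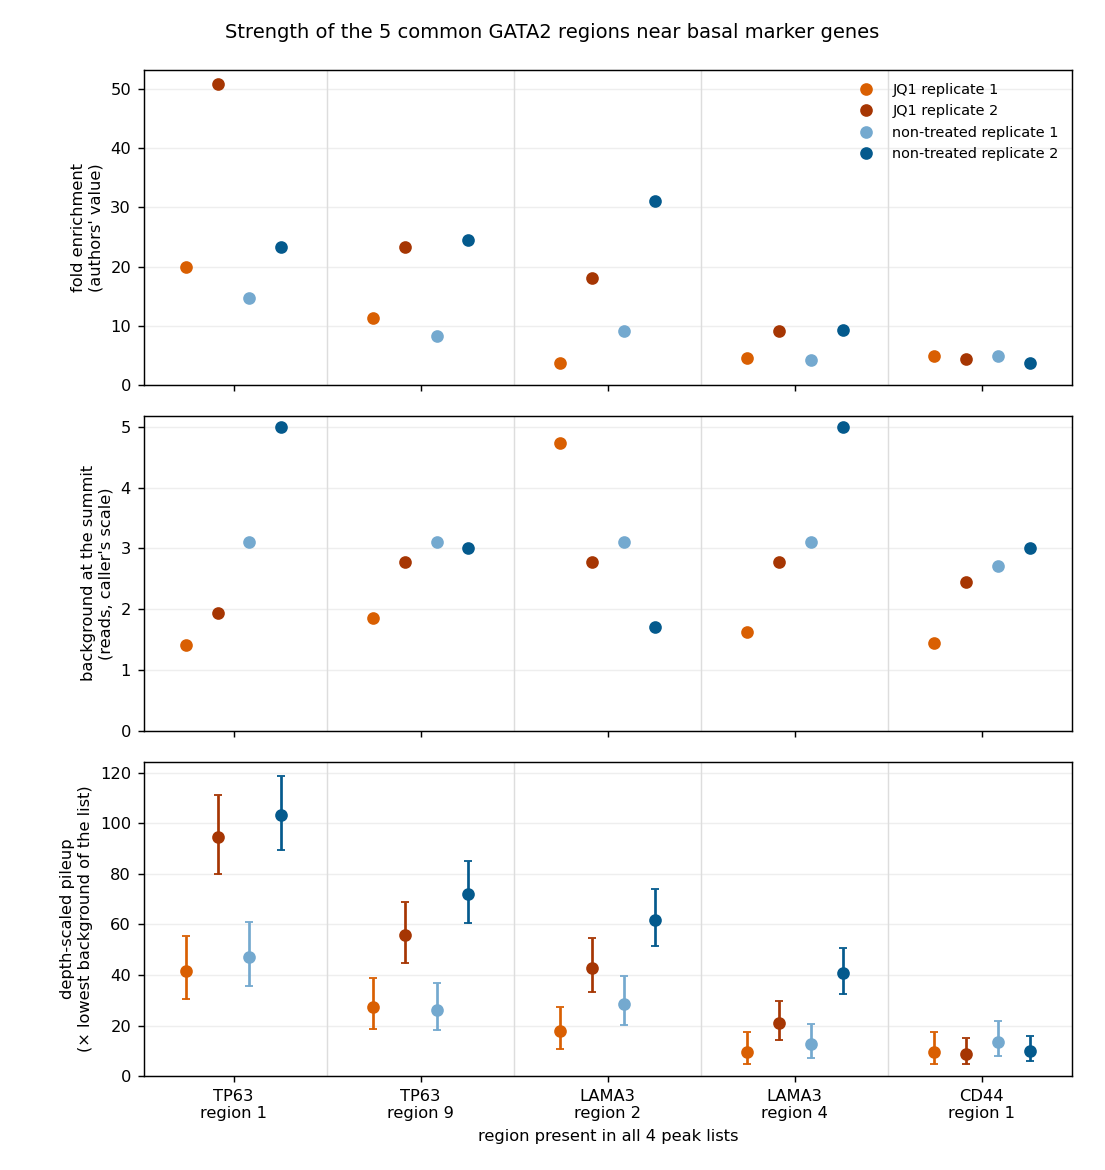
The authors' fold enrichment (top), the background recovered at the summit (middle) and the depth-scaled pileup with 95% Poisson intervals (bottom) for the 5 member regions present in all 4 lists, with 1 point per list. At TP63 region 1 the fold was 50.9 in JQ1 replicate 2 and 23.3 in non-treated replicate 2, whereas the depth-scaled pileup was 94.7 in JQ1 replicate 2 and 103 in non-treated replicate 2.

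The members' common regions were then read against all 3236 regions present in the 4 lists. Depth-scaled pileup was lower with JQ1 in both replicates at 4 of the 5 member regions, and this held for 60.4% of all common regions. It was higher in both replicates at 0 of 5, against 10.7% of all. By fold, 1 of the 5 was lower in both replicates, against 37.7% of all, and 2 of 5 were higher, against 16.9%. The median log2 depth-scaled pileup, JQ1 over non-treated, was −0.39 in replicate 1 and −0.37 in replicate 2 over the 5 regions, and −0.22 and −0.30 over all common regions. TP63 region 1 exceeded 85.3% and 97.1% of common regions in its log2 fold, in replicate order, but 53.6% and 72.1% in its log2 depth-scaled pileup. LAMA3 region 2 exceeded 3.24% and 18.6% of them by fold, and 14.7% and 23.2% by pileup. No test between lists was run on these values, since each list was called on its own.

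**Figure D3:**
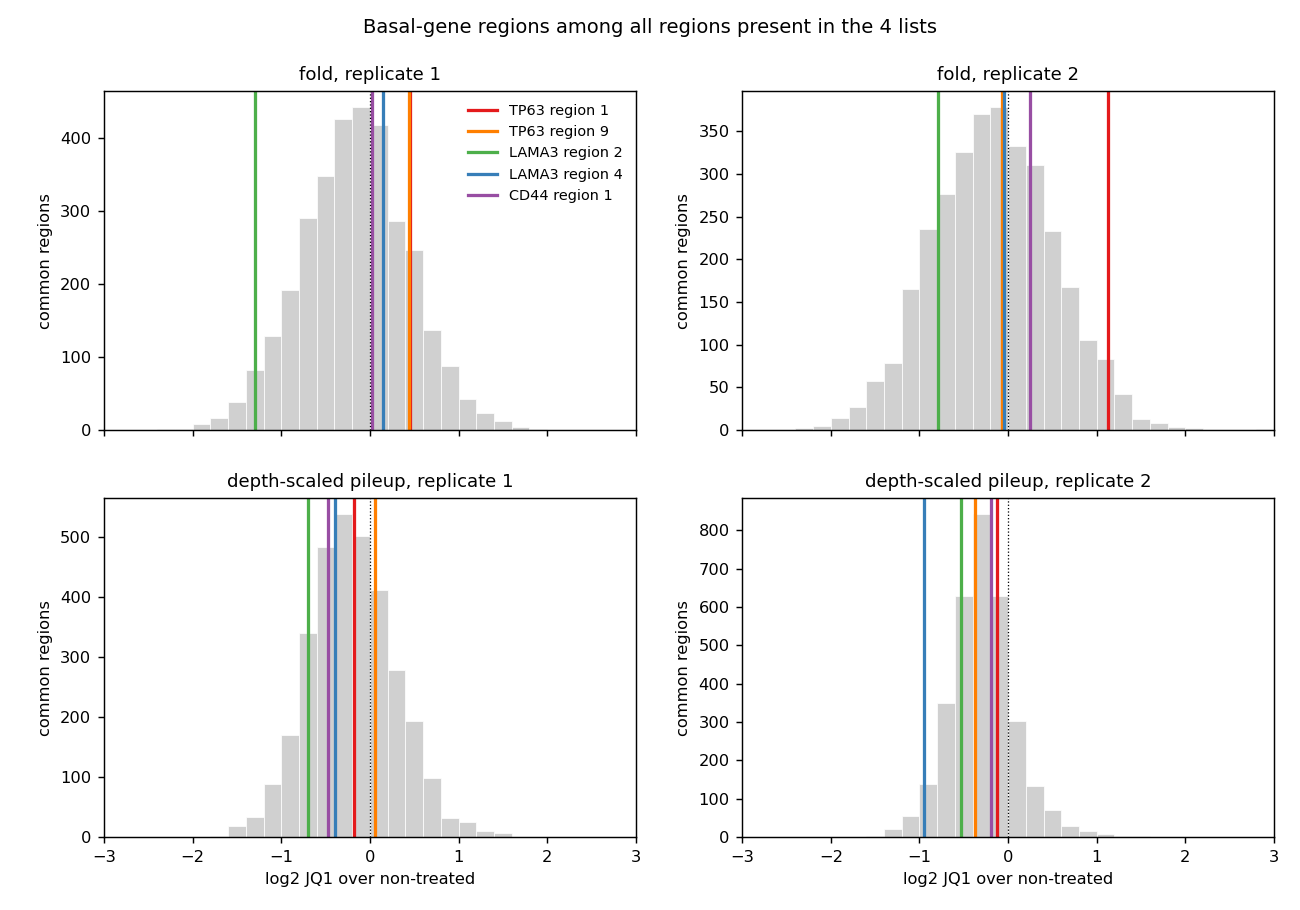
Histograms of log2 JQ1 over non-treated for the 3236 common regions, by the authors' fold (top) and by depth-scaled pileup (bottom), in replicate 1 (left) and replicate 2 (right), with vertical lines for the 5 member regions. TP63 region 1 stands far to the right by fold in replicate 2, at 1.13, and near the centre by depth-scaled pileup, at −0.12.

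In replicate 2, where both lists were long, 31 member regions had a peak in each treatment. Depth-scaled pileup was lower with JQ1 at 25 of these, or 80.6%, with a median log2 difference of −0.37 and a range of −1.18 to 0.93. Over all 21173 regions found in both replicate 2 lists, 64.7% were lower with JQ1 and the median was −0.20. The lowest value was at ITGA6 region 2, where the depth-scaled pileup was 7.68 in JQ1 replicate 2 and 17.4 in non-treated replicate 2. At DST region 13 it was 12.8 in JQ1 replicate 2 and 27.6 in non-treated replicate 2. At SNAI2 region 2 it was 37.1 in JQ1 replicate 2 and 44.5 in non-treated replicate 2. In the other direction, DST region 6 had 20.5 in JQ1 replicate 2 and 10.7 in non-treated replicate 2. The fold of DST region 6 was instead lower with JQ1, at 5.04 in JQ1 replicate 2 and 6.51 in non-treated replicate 2. Its background on the caller's scale was 5.54 and 1.37 in the same order.

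Members with replicated GATA2 regions were set beside all genes. A region in both JQ1 lists was found near 4 of 10 members (TP63, LAMA3, CD44 and EGFR), against 17.8% of all genes, and a region in both non-treated lists near 5 (TP63, LAMA3, CD44, DST and SNAI2), against 24.3%. A region in all 4 lists lay near 3 members, against 13.6% of all genes. The members are long genes, with a median span of 86.2 kb as against 24.1 kb for all genes, and a long span holds more summits. Among the 7 members of 50 kb or more, 3 had a common region, against 24.0% of all genes of that length. Among the 3 shorter ones, 0 had a common region, against 8.85% of all shorter genes. Per Mb of window, the members had 18.8 regions and 2.00 common regions, and all protein-coding genes 13.3 and 1.21.

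Other gene lists gave the following counts. Of 24 further basal and basement membrane genes, 15 had a region of any list and 3 had a common region, namely DSC3, GSTP1 and ITGA2, or 12.5%. The DSC3 region, 0.217 kb beyond the lower-coordinate end of this desmosomal cadherin gene, had a −log10 q of 46.2 and 219 with JQ1 and 31.2 and 185 in non-treated cells. The region 1.23 kb from GSTP1, which codes for a glutathione transferase, had 12.6 and 115 with JQ1 and 22.8 and 96.8 non-treated. The region inside ITGA2, a collagen-binding integrin gene, had 4.65 and 15.0 with JQ1 and 6.23 and 20.5 non-treated. All 20 luminal markers had a region of any list, and 8 had a common region, among them FOXA1, KLK3 and TMPRSS2. Of 12 neuroendocrine markers, 10 had a region of any list and only SOX2 had a common one, with a −log10 q of 12.9 and 26.8 with JQ1 and 2.68 and 25.5 non-treated. The lists differ in gene length and number, and no difference between them was tested.

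**Figure D4:**
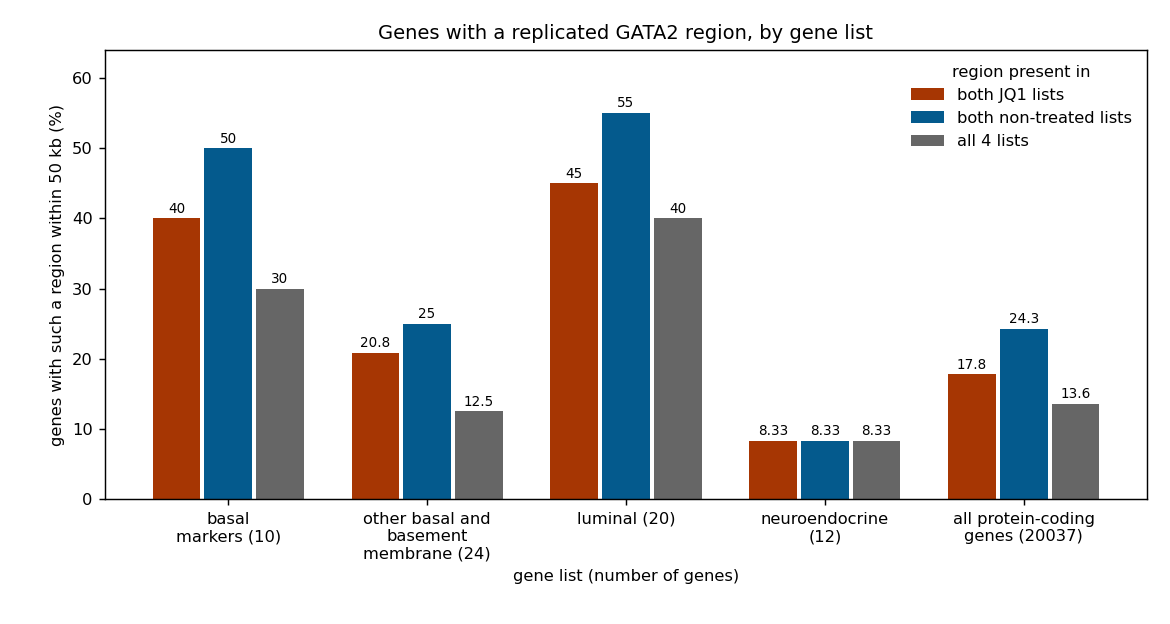
Percent of genes with a GATA2 region within 50 kb that was present in both JQ1 lists, both non-treated lists or all 4 lists, for the 10 basal markers, 3 further gene lists and all 20037 protein-coding genes. The basal markers stand at 40, 50 and 30%, the luminal list at 45, 55 and 40%, and all genes at 17.8, 24.3 and 13.6%.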

How the data were processed

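The tools named in the submitters' processing notes are Bowtie2, Picard and MACS2, on build hg38, with version numbers not given in the sources used here. Each of the 4 deposited lists gives peaks of 1 precipitate, with a q-value of 0.05 in the peak names, per the file headers. The fold enrichment (a linear ratio), the −log10 p-value and −log10 q-value and the whole-number score in the deposited lists are the caller's values for that list; the score was not used. Summits were taken as the start plus the deposited summit offset.

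Only the autosomes, X and Y were used, and overlaps of at least 1 bp were merged (Python 3.11.15, pandas 2.3.3). Where a list had more than 1 peak in a region, the one with the lowest p-value was used. Gene spans, starts and promoter sequences came from RefSeq tables of GRCh38.p14; protein-coding genes were used, and all 10 members were matched. Promoter windows were listed for 8 members. The table lists 1 start of LAMA3 and of TP63, so distances to unlisted starts are not given.

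Pileup and background were solved from fold = (pileup + 1)/(background + 1) and the Poisson tail of the same pair. A whole number of fragments met the deposited −log10 p-value within 0.005 for 100% of peaks in each list, with the pileup of non-treated replicate 2 scaled by 0.686. The step was tested on simulated data. Depth-scaling takes the lowest background as the list's genome-wide level. The depth in reads is not in the lists, and intervals (95%) cover counting error only.

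Peak numbers and shares were compared by exact permutation over the 4 lists. Counts of genes and regions carry no test. Alternatives were windows of 10 and 100 kb, a q-value of 1e-05, lists of equal length, assignment to the nearest gene, a reciprocal overlap of 50%, leaving out a replicate and a replicate block. Named genes are all members, nearer neighbours of their regions and genes of 3 further lists with a region in all 4 peak lists, of which some luminal genes are counted but not named here. The members and lists were chosen with earlier results of these data known, and the recovery of pileups and the promoter window of the non-coding gene were chosen after seeing the data.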

Additional observations from a re-analysis of the deposited data

How the results depend on the processing

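Over 7 results and 56 alternative values, 43 kept their direction, or stayed within 1.5 times the reported count, 2 turned direction and 11 moved by more. The 43 include counts of 0 that stayed at 0. A narrower window or assignment to the nearest gene left such counts little room to rise. The number of peaks near members (log2 JQ1 over non-treated −0.34) ran from −1 to 0.32 when a replicate was left out, and the share of the list (−0.22) from −0.53 to 0.079, both turning positive without replicate 1. At a q-value of 1e-05 they were −1.09 and −0.92, and with lists of equal length both were −0.54 (exact permutation p of 0.333). Requiring a q-value of 1e-05 left 2 common regions and 1 member with a region in both JQ1 lists, and lists of equal length (4974 peaks) left 3 and 2. With a single replicate, presence in all lists ran from 5 to 31 regions, members with a JQ1 region from 4 to 9, members with a non-treated region from 5 to 9, non-treated-only regions from 4 to 7 and JQ1-only regions from 1 to 12. The replicate block takes differences within a replicate number, and its log2 values of −0.34 and −0.22 equal the reported ones by arithmetic. They are counted among the 43 but could not have turned direction. The exact sign p was 1 for both, the smallest possible being 0.5. Both replicate 1 lists were shorter than both replicate 2 lists, but the labels do not tie a number to a shared batch and there are only 2 pairs, so the numbers were not taken as pairs. For each of 36122 regions, presence in replicate 1 minus presence in replicate 2 was taken within each treatment. The correlation of this difference between JQ1 and non-treated was −0.05. Only regions with a peak in some list could enter it, so list length can affect the value, and it settles nothing on pairing. The lowest exact permutation p over the alternatives was 0.333, the smallest this design allows. The causes were not tested. Replicate 1 lists are short, so that absence there says only that no peak was called.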
